A study of Mus musculus with 13 samples.

Results

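Tead2 and 9 other genes at the output end of the Hippo pathway were followed in purified mouse glomeruli, the filtering units of the kidney. The 10 genes were taken by name from a table of 46958 genes: the transcription factors Tead1, Tead2, Tead3 and Tead4, their co-activators Yap1 and Wwtr1 (which encodes TAZ), and the targets Ctgf, Cyr61, Ankrd1 and Amotl2. The set was chosen by the RNA level of Tead2, which is raised in the light-chain genotype, so the difference of Tead2 from the other genotypes is given as a description, without a test. The other 9 were added as its pathway partners and targets. All 10 passed the filter on low counts, as did 16738 genes of the table.

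The Hippo pathway is a kinase cascade that restrains YAP and TAZ. When the kinases Stk3, Stk4, Lats1 and Lats2 are active, YAP and TAZ are phosphorylated and held in the cytoplasm. When they are not, both enter the nucleus and bind TEAD proteins, since neither binds DNA by itself, and the TEAD complexes switch on genes for growth, matrix and adhesion. Control is largely at the level of protein location, which RNA counts do not show. In the glomerulus YAP is known for its part in the survival of podocytes, the cells that wrap the capillaries, and CTGF for its part in scarring.

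Glomeruli had been isolated with magnetic beads, and all mice were 6 months old and of a mixed C57/BL6x129/SVxBALB/c background. The groups were 4 libraries of the genotype labelled kFRA (LCDD), called LCDD here after light chain deposition disease, 4 of the genotype labelled DH-LMP2A, and 5 labelled WT (wild type), with no treatment given in the labels. The alleles behind the genotype names are not described further in the labels. Each library pooled 3 mice except 3 WT libraries, which came from single mice, so the spread within WT is partly that of single animals. A 6-digit code in the sample titles is shared by libraries of different genotypes and takes 4 values. Its meaning is not given. It serves here as a block that pairs libraries, and the second of the 4 codes in rising order holds LCDD and DH-LMP2A libraries and none of WT.

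Total counts ran from 16687509 to 30587890 per library. Glomerular markers were abundant: the 10 podocyte genes fixed for this check, led by Podxl, summed to 8203 to 36600 CPM (counts as a rate per library total, scaled by the TMM method). The 9 endothelial genes, led by Plat and Ehd3, summed to 8021 to 19420 CPM. The summed level of 9 mesangial genes, led by Itga8 and Serpine2, was 4076 to 7281 CPM in LCDD, 2967 to 3689 in DH-LMP2A and 3256 to 3962 in WT. This sum lay higher in LCDD than in both other groups without overlap, but not every gene did. Of the 9, 7 were higher and 2 lower in LCDD in each comparison: Acta2 and Tagln were lower against DH-LMP2A, Pdgfrb and Acta2 against WT. By edgeR 1 of the 9 was called against DH-LMP2A and 0 against WT, beside 2.00% and 1.84% of all genes. Podocyte sums overlapped, at 8203 to 33320 CPM in LCDD, 17450 to 33430 in DH-LMP2A and 16460 to 36600 in WT. Of the 10 podocyte genes, 9 were lower in LCDD against DH-LMP2A and 10 against WT (median log2 fold changes -0.451 and -0.543). By edgeR 0 of the 10 were called against DH-LMP2A, and 1, Ptpro, was called lower against WT. Proximal tubule genes (7, led by Slc34a1 and Lrp2) summed to 271.6 to 1107 CPM in LCDD, 315.6 to 2224 in DH-LMP2A and 41.21 to 2082 in WT. The 18 proliferation genes, led by Mcm2 and Mki67, summed to 122.6 to 247.0 CPM in LCDD and at most 77.71 in any other library. All 18 were higher in LCDD in both comparisons, and edgeR called 9 against DH-LMP2A and 12 against WT. Mcm2 was called in neither (edgeR adjusted p = 0.617 and 0.479). The lists for immune cells (7 genes, Lyz2 and Ptprc highest), interstitial fibroblasts (4 of 5 tested, Pdgfra and Dcn highest), parietal epithelium (5 of 6 tested, Cldn1 and Pax8 highest) and distal nephron (6 genes, Umod and Slc12a1 highest) were detected in every group. In bulk RNA, fewer cells of a type and less RNA per cell cannot be told apart. The Y-linked gene Ddx3y had 0 or 1 count in 4 of the 5 WT libraries. It had at least 197 in the other 9 libraries, of which WT replicate 2 is the one from WT. Ddx3y therefore moves with the comparisons against WT, and without WT replicate 2 it separates WT from both other genotypes. Values with its level as a covariate are given where they change a member's call.

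TEAD proteins bind the core letters GGAATG. The promoters of the targets Ankrd1, Cyr61 and Amotl2 and of Tead2 are shown to make that feature visible beside the levels that follow. RefSeq promoter windows on GRCm38.p6, from 250 bases before the annotated start to 50 after it, were matched for 7 of the 10 genes. None was found for Ctgf, Tead1 or Tead4, so the promoter of the target Ctgf was not searched. Capitals mark GGAATG read on either strand, where the other strand reads CATTCC.

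Ankrd1 (chr19:36119795-36120094, - strand): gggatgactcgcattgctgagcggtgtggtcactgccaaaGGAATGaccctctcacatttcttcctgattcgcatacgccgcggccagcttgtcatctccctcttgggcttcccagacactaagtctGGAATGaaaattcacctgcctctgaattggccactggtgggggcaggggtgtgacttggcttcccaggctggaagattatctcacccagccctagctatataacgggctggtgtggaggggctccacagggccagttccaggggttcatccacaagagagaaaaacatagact

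Cyr61 (chr3:145649936-145650235, - strand): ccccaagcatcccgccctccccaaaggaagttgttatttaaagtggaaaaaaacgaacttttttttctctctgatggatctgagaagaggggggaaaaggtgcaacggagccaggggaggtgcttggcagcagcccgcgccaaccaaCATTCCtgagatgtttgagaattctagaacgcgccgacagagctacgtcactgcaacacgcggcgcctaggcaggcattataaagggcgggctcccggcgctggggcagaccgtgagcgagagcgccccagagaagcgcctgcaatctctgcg

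Amotl2 (chr9:102717554-102717853, + strand): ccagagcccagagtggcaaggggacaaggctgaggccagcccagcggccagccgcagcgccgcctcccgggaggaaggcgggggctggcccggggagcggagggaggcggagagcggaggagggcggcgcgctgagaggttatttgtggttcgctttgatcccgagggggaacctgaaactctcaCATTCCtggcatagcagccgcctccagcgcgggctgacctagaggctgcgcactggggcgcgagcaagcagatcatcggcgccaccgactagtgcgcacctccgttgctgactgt

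Tead2 (chr7:45215542-45215841, + strand): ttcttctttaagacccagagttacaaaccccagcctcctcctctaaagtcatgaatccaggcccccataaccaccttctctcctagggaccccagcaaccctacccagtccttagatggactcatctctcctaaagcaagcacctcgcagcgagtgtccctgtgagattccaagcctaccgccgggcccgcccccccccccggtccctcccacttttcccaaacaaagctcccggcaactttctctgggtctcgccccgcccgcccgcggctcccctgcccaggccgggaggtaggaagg

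Ankrd1 held a pair of matches, which begin 210 and 123 bases before the start. The match of Cyr61 (listed in RefSeq as Ccn1) begins 103 bases before it, and that of Amotl2 65 bases before it. Tead2 had no match in its window. Of all 32851 promoter windows of this length, 14.7% held the motif, as did 8 of the 10 windows of these 7 genes, since Tead3 and Wwtr1 have more than 1. Windows of the same gene overlap, and those of Wwtr1 hold the same match, so they are not separate cases. By gene, 6 of the 7 had a match. The other windows with a match were those of Yap1 and Wwtr1 and some of those of Tead3. A match describes letters in a window and is not a measured binding site.

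Tead2 was about 4 times as abundant in LCDD as in either other genotype, and within LCDD it was the leading TEAD by length-scaled level. Tead2 (chromosome 7, 45215753 to 45233635 on GRCm38, plus strand) had 100.5, 149.9, 157.1 and 142.5 CPM in LCDD replicates 1 to 4, 40.86, 34.19, 36.37 and 32.19 CPM in DH-LMP2A and 32.55, 37.44, 35.08, 31.32 and 37.23 CPM in WT. Every LCDD library lay above every other library, and LCDD replicate 1 was the lowest of its group. The fitted log2 fold change was 1.94 against DH-LMP2A and 1.99 against WT, values that chose the gene and carry no test. Taken code by code, in rising order, LCDD minus DH-LMP2A was 1.30, 2.13, 2.11 and 2.14 on the log2 scale. Between DH-LMP2A and WT, the contrast not used in choosing it, the log2 fold change was 0.05 ± 0.13 (SE, edgeR quasi-likelihood adjusted p = 0.913), and the groups overlapped. Cd37, on the opposite strand, shares 4 exon bases with Tead2 and had 63 to 394 counts.

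Per kilobase of exon, the scale on which genes can be compared, Tead2 averaged 29.5 ± 5.44 CPM per kb in LCDD (SD, n = 4), 7.69 ± 0.797 in DH-LMP2A (SD, n = 4) and 7.44 ± 0.587 in WT (SD, n = 5). Its part of the summed level of the 4 TEAD genes was 51.3% ± 3.54 for LCDD (SD, n = 4), 23.7% ± 6.02 for DH-LMP2A (SD, n = 4) and 21.7% ± 2.85 for WT (SD, n = 5). The summed TEAD level was 44.41 to 64.89 CPM per kb in LCDD, against 26.88 to 36.27 in DH-LMP2A and 27.25 to 38.56 in WT. Tead1 led the family on average in DH-LMP2A, with 28.24% to 49.25% of the sum, and in WT, with 34.73% to 47.38%. These shares include the level of Tead2 and are a description.

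**Figure D1:**
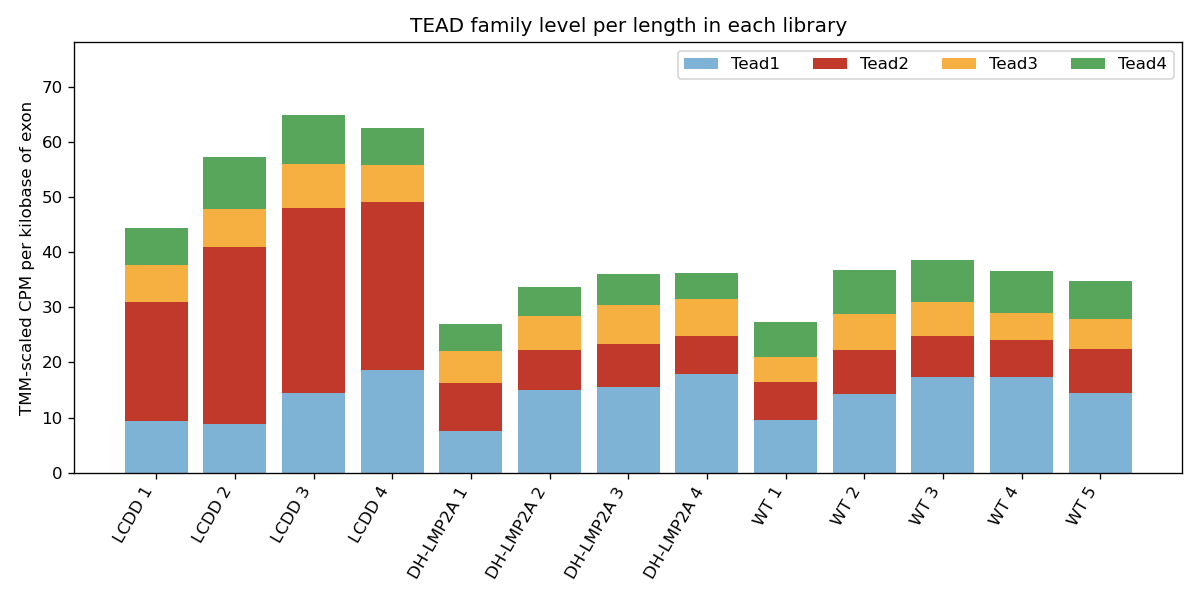
Stacked bars give the TMM-scaled CPM per kilobase of exon of Tead1, Tead2, Tead3 and Tead4 in each of the 13 libraries. The Tead2 segment is 21.52 to 33.65 in LCDD and at most 8.753 elsewhere, and the Tead1 segment is the largest in most other libraries.

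Of the other 3 TEAD genes, Tead4 was higher in LCDD than in DH-LMP2A and close to its WT level. Tead4 (chromosome 6) had 24.21, 33.95, 32.21 and 24.22 CPM in LCDD, 17.10, 19.23, 20.10 and 16.88 CPM in DH-LMP2A and 22.45, 28.17, 27.55, 27.07 and 25.06 CPM in WT. All DH-LMP2A libraries lay below all others, and the LCDD and WT ranges overlapped. Tead4 rose by 0.64 ± 0.14 (SE) on the log2 scale in LCDD against DH-LMP2A (edgeR adjusted p = 0.0299), higher under 4 of 4 title codes. It was the only one of the 9 tested members called in that comparison in either direction, against a background of 2.00% of all genes (1.30% up, 0.693% down). An unadjusted p under 0.05 was found for 3 of the 9, beside 2193 of all 16738 genes. The median log2 fold change of the 9 was 0.22, beside -0.01 over all genes tested. That contrast also chose Tead2, so nothing is read from the count. The call was lost when LCDD replicate 2 or 3, or any single DH-LMP2A replicate, was left out (edgeR adjusted p from 0.0503 to 0.11, log2 fold change from 0.53 to 0.69), and the call held with the code as a block (0.00597). The fibroblast sum, set mostly by Pdgfra, was also lowest in DH-LMP2A, at 113.2 to 142.8 CPM against 147.9 to 224.6 in LCDD and 166.1 to 209.2 in WT. The other tested genes of that list did not share this order. Col1a1 and Col3a1 had their highest means in DH-LMP2A (2.97 and 2.22 CPM), and Dcn had its lowest in WT (1.10 CPM). The part of Pdgfra or of this cell type in the Tead4 values was not tested. Against WT the log2 fold change of Tead4 was 0.14 ± 0.13 (SE, edgeR adjusted p = 0.798).

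In DH-LMP2A against WT, 0 of the 10 members were called by edgeR without the block, against 0.627% of all genes (0.275% higher and 0.352% lower), and DESeq2 called 1. An unadjusted p under 0.05 was reached by 2 members, beside 2085 of all 16738 genes. The value for Tead4 was -0.51 ± 0.13 (SE) on the log2 scale, with an edgeR adjusted p of 0.115. With the code as a block it was called, at -0.58 ± 0.10 (SE, edgeR adjusted p = 0.0189), the 1 member of 10 so called where 3.36% of all genes were. LCDD, DH-LMP2A and WT libraries enter more than 1 comparison each, so these values are not independent of one another.

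Tead1 did not differ by genotype beyond its spread. It had 98.65 to 208.5 CPM in LCDD (median 133.4), 85.31 to 200.7 in DH-LMP2A (median 171.2) and 106.4 to 194.6 in WT (median 161.3). Its log2 fold change was -0.13 ± 0.29 (SE) against DH-LMP2A (edgeR adjusted p = 0.896) and -0.19 ± 0.28 (SE) against WT (0.906). The 4 lowest Tead1 libraries, LCDD replicates 1 and 2, DH-LMP2A replicate 1 and WT replicate 1, had at most 106.4 CPM, and all others at least 159.3. Those same 4 libraries had the lowest podocyte sums, at most 17450 CPM against at least 22540 in the other 9. Code moved with them too, since 3 of the 4 are the libraries of the first title code. The part of either in the Tead1 values was not tested. Tead3 spanned 29.34 to 34.90 CPM in LCDD, 25.44 to 31.23 in DH-LMP2A and 20.12 to 29.22 in WT. Its LCDD and WT libraries did not overlap, yet the log2 fold change of 0.35 ± 0.12 (SE) was not called (edgeR adjusted p = 0.207). Against DH-LMP2A it was 0.13 ± 0.13 (SE, edgeR adjusted p = 0.738).

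The co-activators of the TEAD proteins were not called in any comparison. Yap1 had 174.8, 204.8, 209.8 and 217.1 CPM in LCDD, 197.3, 201.8, 205.4 and 211.6 CPM in DH-LMP2A and 198.5, 243.8, 241.6, 240.8 and 241.6 CPM in WT. The LCDD values enclosed those of DH-LMP2A, and 4 of the 5 WT libraries lay above both groups. Within the 3 codes that hold both, LCDD minus WT was -0.184, -0.216 and -0.153 on the log2 scale, lower in each. Its log2 fold change was -0.02 ± 0.10 (SE) against DH-LMP2A (edgeR adjusted p = 0.964) and -0.21 ± 0.10 (SE) against WT (0.436). Wwtr1 had 179.0, 184.6, 129.3 and 126.9 CPM in LCDD, 139.6, 147.5, 115.5 and 129.2 CPM in DH-LMP2A and 175.4, 126.8, 176.8, 174.2 and 189.6 CPM in WT. All 4 LCDD libraries lay within the WT range. LCDD replicates 1 and 2 lay above every DH-LMP2A library, and LCDD replicates 3 and 4 within the DH-LMP2A range. DH-LMP2A replicates 1 and 2, which share title codes with LCDD replicates 1 and 2, likewise lay above DH-LMP2A replicates 3 and 4. WT did not follow the code in this way, since WT replicates 3 to 5, with the code of LCDD replicate 4, had 174.2 to 189.6 CPM. Over the 13 libraries the Pearson coefficient of Wwtr1 with the endothelial sum was 0.834 on the log2 scale. Those of Yap1 with the parietal epithelial and proximal tubule sums were -0.926 and -0.813. The part of these cell types in the Wwtr1 and Yap1 values was not tested. On the log2 scale Wwtr1 in LCDD stood at 0.22 ± 0.16 (SE) against DH-LMP2A (edgeR adjusted p = 0.625) and at -0.12 ± 0.15 (SE) against WT (0.869), neither a call. Per kilobase, the ratio of Wwtr1 to Yap1 was 1.51 ± 0.418 for LCDD (SD, n = 4), 1.26 ± 0.155 for DH-LMP2A (SD, n = 4) and 1.41 ± 0.258 for WT (SD, n = 5), and the ranges overlapped.

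**Figure D2:**
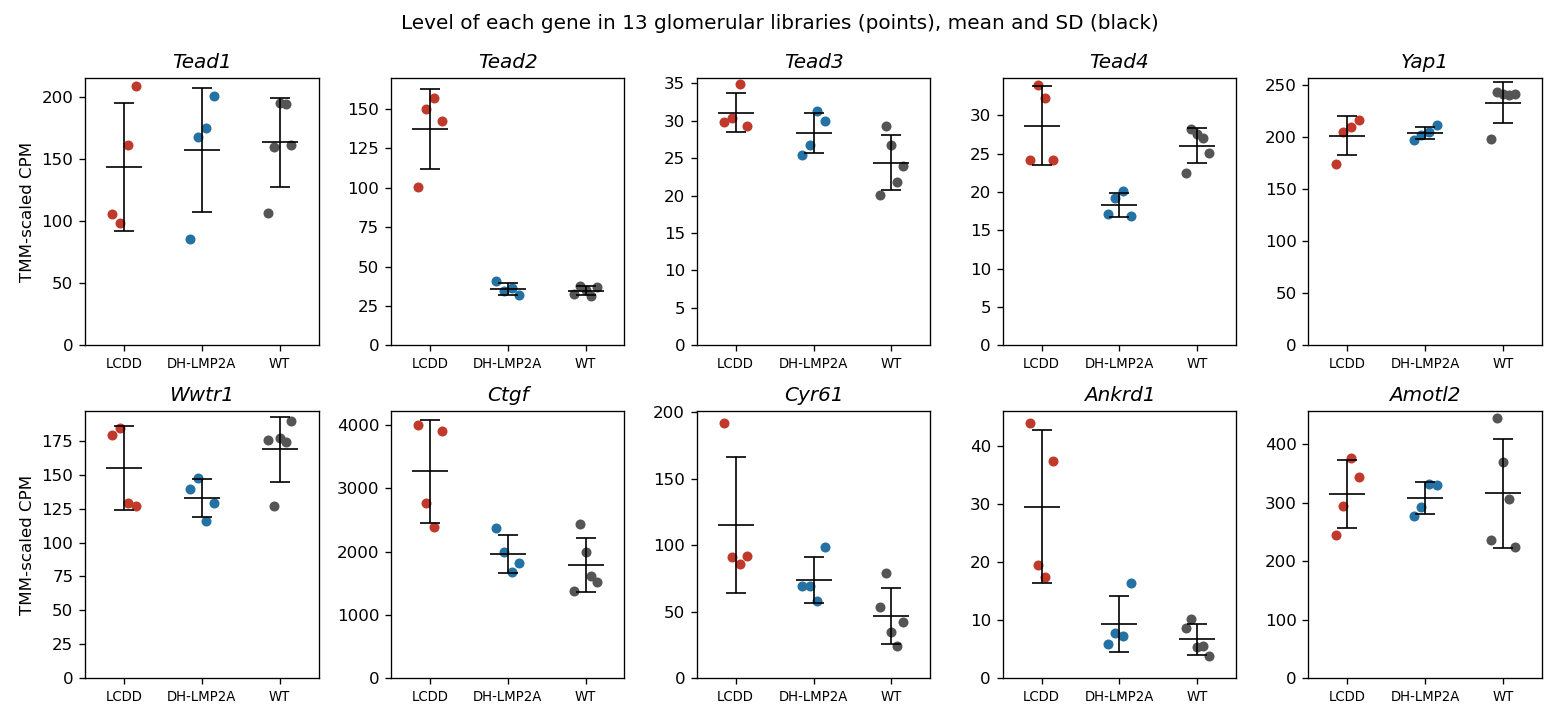
Each panel plots 1 gene, with TMM-scaled CPM on a linear axis from 0, a point for each library, and the mean and SD of each genotype in black. Tead2 separates LCDD from both other genotypes, Ankrd1 and Ctgf are higher in LCDD with a wide spread, and Yap1, Wwtr1, Tead1 and Amotl2 overlap between LCDD and the others.

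Among the 4 target genes, Ankrd1 rose in LCDD against WT, Ctgf and Cyr61 had higher means that did not pass the test, and Amotl2 overlapped between genotypes. Ankrd1 (chromosome 19), a nuclear ankyrin-repeat protein and a widely used readout of YAP activity, had 43.89, 19.42, 17.34 and 37.35 CPM in LCDD. It had 5.837, 7.817, 7.309 and 16.34 CPM in DH-LMP2A and 8.606, 10.26, 5.405, 5.593 and 3.772 CPM in WT. Every LCDD library lay above every other library, the nearest being DH-LMP2A replicate 4. Against WT it rose by 2.14 ± 0.39 (SE) on the log2 scale (edgeR adjusted p = 0.0121), a 4.40-fold change. It was the only one of the 9 tested members called in this comparison, against a background of 1.84% of all genes (1.30% up, 0.544% down). Of the 9, 4 reached an unadjusted p under 0.05, beside 2002 of all 16738 genes. The median log2 fold change of the 9 was 0.14, beside 0.01 over all genes tested. The contrast with WT chose Tead2 as well, so nothing is read from this count either.

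Leaving out any 1 library kept the Ankrd1 call against WT (edgeR adjusted p from 0.0115 to 0.046). Without the 3 single-mouse WT libraries the log2 fold change was 1.61 and was not called (edgeR adjusted p = 0.345). With the Ddx3y level as a covariate it was 1.55 (edgeR adjusted p = 0.503). Within the title codes that hold both genotypes, LCDD exceeded WT by 2.34, 0.753 and 2.92 on the log2 scale. Against DH-LMP2A the log2 fold change of 1.66 ± 0.41 (SE), or 3.17-fold, missed the threshold (edgeR adjusted p = 0.0599), and it passed when LCDD replicate 3 (1.85, 0.0407) or DH-LMP2A replicate 4 (2.08, 0.0391) was left out. It also passed with the Ddx3y covariate (1.74, edgeR adjusted p = 0.049). Under the 4 codes the differences from DH-LMP2A were 2.89, 1.30, 1.24 and 1.19.

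Ctgf (chromosome 10), a secreted matricellular protein linked to fibrosis, was the most abundant of the 10 genes. It had 4004, 2767, 2387 and 3907 CPM in LCDD, 2368, 1996, 1676 and 1827 CPM in DH-LMP2A and 1378, 2435, 1994, 1616 and 1520 CPM in WT. LCDD lay above DH-LMP2A by a narrow margin and overlapped WT only through WT replicate 2. The log2 fold change was 0.73 ± 0.24 (SE) against DH-LMP2A (edgeR adjusted p = 0.167) and 0.87 ± 0.23 (SE) against WT (0.0778). Without WT replicate 2 the difference from WT was 0.98 and was called (edgeR adjusted p = 0.0441). That library is the only one of WT with more than 1 Ddx3y count. With the Ddx3y covariate the difference was 0.46 (edgeR adjusted p = 0.7). Within codes, LCDD minus WT was 1.54, -0.0285 and 1.20. The antisense gene Gm15270 shares 665 exon bases with Ctgf and had 57 to 161 counts, against 29352 or more for Ctgf in each library.

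Cyr61 (chromosome 3), a secreted relative of CTGF, had 192.2, 91.50, 86.07 and 91.70 CPM in LCDD, 69.41, 69.16, 58.13 and 98.53 CPM in DH-LMP2A and 53.52, 79.26, 34.91, 24.34 and 42.26 CPM in WT. LCDD exceeded WT without overlap, and DH-LMP2A replicate 4 lay above 3 of the 4 LCDD libraries. The log2 fold change against WT was 1.30 ± 0.33 (SE, edgeR adjusted p = 0.0683). Without WT replicate 2, again the one with more than 1 Ddx3y count, it was 1.53 and was called (0.0233). Without the 3 single-mouse WT libraries it was 0.76 (edgeR adjusted p = 0.711) and with the Ddx3y covariate 0.29 (0.846). Against DH-LMP2A it was 0.64 ± 0.34 (SE, edgeR adjusted p = 0.47), and 0.28 without LCDD replicate 1, in which Cyr61 was highest. Amotl2, an angiomotin that is both a target of YAP and an inhibitor that binds it, had 244.5 to 376.3 CPM in LCDD, 277.3 to 331.5 in DH-LMP2A and 224.2 to 445.1 in WT. Its log2 fold change was 0.03 ± 0.21 (SE) against DH-LMP2A and -0.01 ± 0.20 (SE) against WT (edgeR adjusted p = 0.969 and 0.997).

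Within LCDD the targets did not rank as Tead2 did. LCDD replicate 1 had the lowest Tead2 level of its group, 100.5 CPM, and the highest Ankrd1, Ctgf and Cyr61 levels, 43.89, 4004 and 192.2 CPM. LCDD replicate 3 had the highest Tead2 level, 157.1 CPM, and the lowest Ankrd1, Ctgf and Cyr61 levels, 17.34, 2387 and 86.07 CPM. Replicate 1 also had the highest mesangial sum (7281 CPM) and proliferation sum (247.0 CPM) and the lowest podocyte sum (8203 CPM) of all 13 libraries, while replicate 3 had the lowest mesangial sum (4076 CPM) and the highest podocyte sum (33320 CPM) of LCDD. With the podocyte level as a covariate the Ankrd1 log2 fold change was 2.03 against WT (edgeR adjusted p = 0.0305) and 1.57 against DH-LMP2A (0.0883). Under it Cyr61 stood at 0.95 against WT (edgeR adjusted p = 0.16) and 0.36 against DH-LMP2A (0.715), and Ctgf at 0.79 and 0.69 (0.106 and 0.15). With the proximal tubule level as a covariate Ankrd1 stood at 2.18 against WT (edgeR adjusted p = 0.0271) and was called at 1.66 against DH-LMP2A (0.0361). The part of the mesangial and proliferation levels in the target values was not tested.

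**Figure D3:**
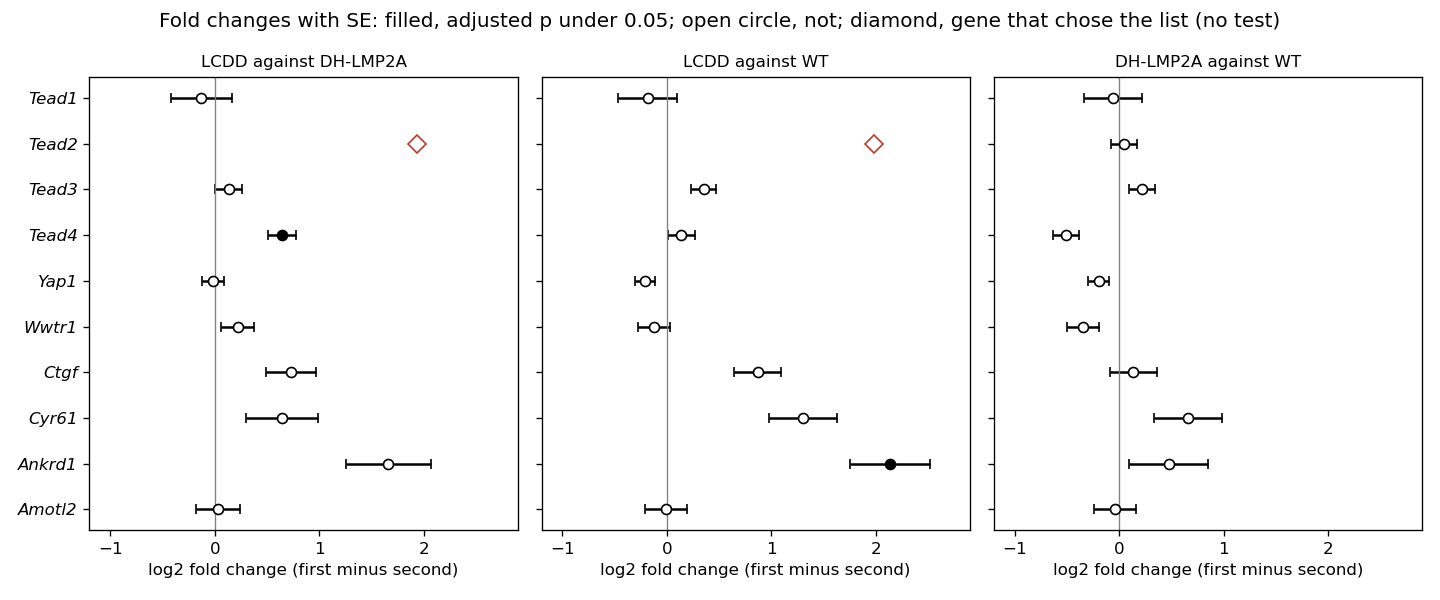
Points give log2 fold changes of the 10 genes in the 3 comparisons, with SE bars. Filled circles have an edgeR adjusted p under 0.05, open circles do not, and red diamonds mark Tead2 in the contrasts that chose it. The called circles are Tead4 at 0.64 against DH-LMP2A and Ankrd1 at 2.14 against WT.

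The wider set of 22 genes often used as a YAP/TAZ target signature was examined next, of which 21 passed the filter and Foxf2 did not, with 5 counts in all. It holds the 4 targets above. In LCDD against DH-LMP2A, 2 of 21 were called, both higher, where 2.00% of all genes were. An unadjusted p under 0.05 was reached by 7, beside 2193 of all 16738 genes. The median log2 fold change was 0.03, beside -0.01 over all genes tested, and -0.17 without the 4 targets above. In LCDD against WT, 2 of 21 were called, both higher, where 1.84% of all genes were. An unadjusted p under 0.05 was reached by 6, beside 2002 of all 16738 genes. The median was 0.11, beside 0.01 over all genes tested, and -0.04 without those 4. The genes with a positive log2 fold change numbered 12 of 21 and 11 of 21. For DH-LMP2A against WT, edgeR and DESeq2 each called 0 of 21. In it 1 gene reached an unadjusted p under 0.05, beside 2085 of all 16738 genes. DESeq2 called 4 and 5 signature genes in the LCDD comparisons, where it called 823 and 742 of all genes, whereas edgeR called 0 in both without the 3 single-mouse WT libraries.

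Nt5e, the surface enzyme CD73 that makes adenosine and also a marker of mesenchymal cells, rose in LCDD against both. Mean levels were 677 ± 219 CPM for LCDD (SD, n = 4), 332 ± 52.5 for DH-LMP2A (SD, n = 4) and 345 ± 66.4 for WT (SD, n = 5), for log2 fold changes of 1.03 ± 0.23 and 0.97 ± 0.22 (SE, edgeR adjusted p = 0.0395 and 0.0362). Ccdc80, a secreted matrix-associated protein, averaged 333 ± 49.8 CPM for LCDD (SD, n = 4), 152 ± 63.9 for DH-LMP2A (SD, n = 4) and 175 ± 38.0 for WT (SD, n = 5). It rose by 1.13 ± 0.25 (SE) on the log2 scale against DH-LMP2A (edgeR adjusted p = 0.0378) and was not called against WT (0.93 ± 0.23, 0.0671). The calls of both against DH-LMP2A were each lost on leaving out 6 of the 8 libraries singly: LCDD replicates 1, 2 and 4 and DH-LMP2A replicates 2, 3 and 4 (edgeR adjusted p from 0.0745 to 0.139). Against WT the Nt5e call was lost without LCDD replicates 1, 2 or 4 or any WT replicate (0.0578 to 0.115).

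Leaving aside the 4 targets above, the next genes of the signature by p were Asap1, an Arf GTPase-activating protein, and Fjx1, a secreted four-jointed homologue, and neither was called. On the log2 scale Asap1 stood at 0.37 ± 0.14 (SE) against DH-LMP2A (edgeR adjusted p = 0.251) and Fjx1 at 1.30 ± 0.47 (SE) against WT (0.232). With the code as a block, F3, the coagulation initiator tissue factor, was lower in LCDD than in DH-LMP2A (edgeR adjusted p = 0.0257). That fit called 6.10% of all genes. Levels were 17.9 ± 10.7 CPM in LCDD and 38.7 ± 18.4 CPM in DH-LMP2A (SD, n = 4 each). WT lay between them on average, at 23.1 ± 6.22 CPM (SD). Against WT, F3 was not called in LCDD, at -0.37 ± 0.43 (SE, edgeR adjusted p = 0.852, and 0.62 with the block). Nor was it called in DH-LMP2A against WT, at 0.75 ± 0.42 (SE, edgeR adjusted p = 0.498, and 0.0726 with the block). F3 is named because the block changed its call, after its values were seen.

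**Figure D4:**
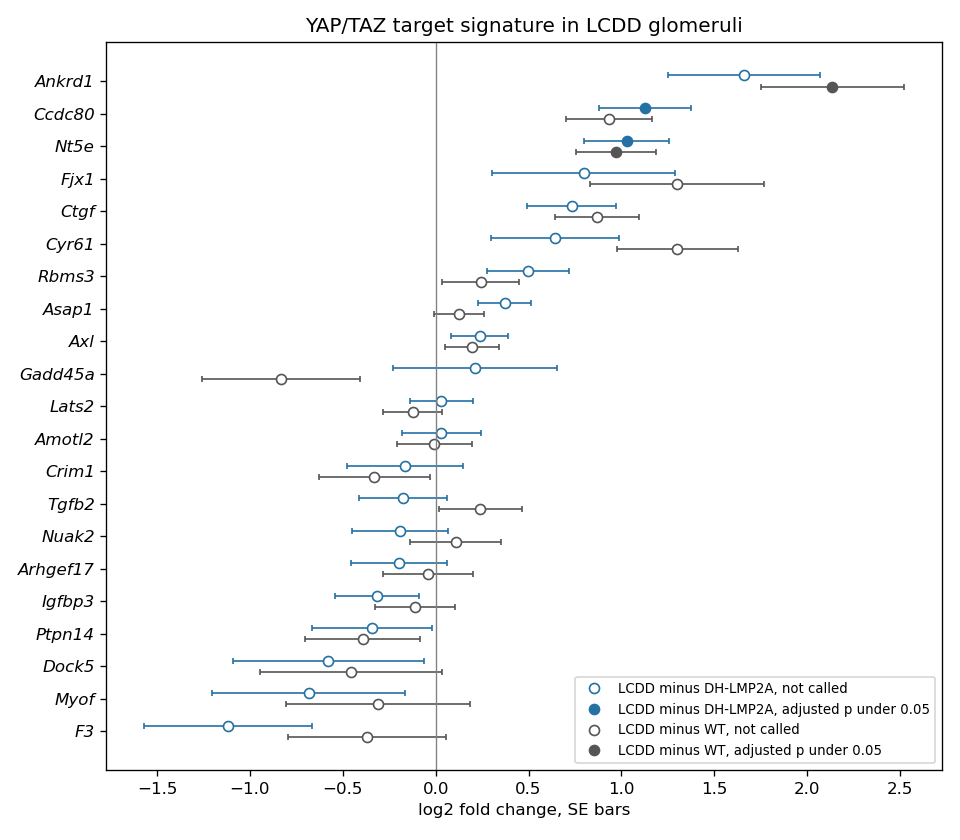
Log2 fold changes with SE bars are drawn for the 21 tested signature genes, ordered by LCDD minus DH-LMP2A (blue), with LCDD minus WT in grey and filled circles for an edgeR adjusted p under 0.05. Genes lie on both sides of 0 in each comparison, with Ankrd1 at the top and F3 at the bottom of the first.

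Upstream of the TEAD proteins, the 17 genes of the kinase cascade (Stk3, Stk4, Sav1, Lats1, Lats2, their Mob1 partners, Nf2 and the inputs above them) were all tested. In LCDD, edgeR called 0 of 17 against either genotype, beside 2.00% and 1.84% of all genes. Against DH-LMP2A and WT, 3 and 2 genes reached an unadjusted p under 0.05, beside 2193 and 2002 of all 16738 genes. DESeq2 also called 0 in each. Median log2 fold changes were 0.09 and -0.03. The smallest p-values belonged to Taok3 and Map4k4, kinases that act on the cascade, at 0.30 ± 0.10 and 0.29 ± 0.11 (SE) on the log2 scale against DH-LMP2A (edgeR adjusted p = 0.152 and 0.222) and at 0.27 ± 0.09 and 0.28 ± 0.10 against WT (0.192 and 0.238). Sav1, the scaffold of Stk3 and Stk4, had 0.23 ± 0.10 against DH-LMP2A (edgeR adjusted p = 0.329), and Nf2, the merlin gene, had -0.21 ± 0.10 against WT (0.437). With the code as a block, the atypical cadherin Fat4 fell in LCDD against WT (edgeR adjusted p = 0.0361), from 55.9 ± 8.13 CPM (SD, n = 5) in WT to 40.4 ± 14.5 CPM (SD, n = 4). It was 1 of 17 in that fit, near the 3.20% of all genes called. In DH-LMP2A against WT, Fat4 and its ligand Dchs1 fell with the block (edgeR adjusted p = 0.0494 and 0.0217), 2 of 17 where 3.36% of all genes were called.

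Of 13 genes whose proteins bind YAP, TAZ or the TEAD proteins, 11 were tested, and Vgll1 and Vgll2 had 0 counts in every library. In LCDD, edgeR called 0 of 11 against either genotype, beside 2.00% and 1.84% of all genes, and DESeq2 called 0 and 1. An unadjusted p under 0.05 was reached by 1 and 2 genes, beside 2193 and 2002 of all 16738 genes. Median log2 fold changes were -0.10 and -0.16. Amotl1, an angiomotin, stood at 0.45 ± 0.15 (SE) on the log2 scale against DH-LMP2A (edgeR adjusted p = 0.177). Amot, the founding angiomotin, stood at -0.16 ± 0.11 (SE) there (edgeR adjusted p = 0.593). Against WT, Amot had -0.34 ± 0.10 (SE, edgeR adjusted p = 0.147). It was called without WT replicate 2 (-0.44, edgeR adjusted p = 0.0254), the WT library with more than 1 Ddx3y count. The tight junction gene Tjp1 had -0.51 ± 0.28 (SE) against WT (0.529). Vgll3, which competes with YAP for TEAD proteins, averaged 5.71 ± 3.41 CPM for LCDD (SD, n = 4), 5.87 ± 2.06 for DH-LMP2A (SD, n = 4) and 16.5 ± 6.83 for WT (SD, n = 5). Against WT it stood at -1.53 ± 0.48 (SE) on the log2 scale (edgeR adjusted p = 0.157), and in the fit with the code as a block, where 3.20% of all genes were called, Vgll3 fell in LCDD (0.034). DH-LMP2A was also lower than WT, at -1.49 ± 0.48 (SE), and not called (edgeR adjusted p = 0.214, and 0.0541 with the block). In DH-LMP2A against WT, 0 of 11 were called, and 1 lower with the block, beside 0.627% and 3.36% of all genes.

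Some neighbours of Tead2 on chromosome 7 were also higher in LCDD. Within 1 Mb of it the table lists 148 other genes, of which 87 were tested. In LCDD against DH-LMP2A, 6 of the 87 were called, all higher in LCDD, or 6.90% beside 2.00% of all genes. In LCDD against WT, 7 were called, all higher, or 8.05% beside 1.84%. With the block, 8 were higher and 7 lower against DH-LMP2A (6.10% of all genes called), and 7 were higher and 2 lower against WT (3.20%). For DH-LMP2A against WT, edgeR called 0 of 87 and DESeq2 called 2. An unadjusted p under 0.05 was reached by 11 of the 87, beside 2085 of all 16738 genes. The window was placed around a gene chosen for this contrast, so the counts are a description.

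The nearest gene on the higher-coordinate side after Cd37 was Slc6a16 (45241085 to 45272689), an orphan member of the neurotransmitter transporter family, which starts 7.45 kb beyond the end of Tead2. It had 33 to 65 counts in each LCDD library, 0 in every DH-LMP2A library and at most 1 in any WT library. Against a floor of 3 counts per library it was at least 16.9-fold higher in LCDD than in either. It passed the filter on low counts only through LCDD, so it is given as a description, without its p, although it is among the genes counted as called. Cd37, a tetraspanin of B cells, had 12.7, 4.59 and 5.45 CPM on average in LCDD, DH-LMP2A and WT. Its log2 fold change against DH-LMP2A was 1.47 ± 0.38 (SE, edgeR adjusted p = 0.0737). It was called in 5 of 18 alternatives, among them the fit with the block (0.0308) and DESeq2 (0.00811).

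The other nearest tested genes were not called. Trpm4, Pih1d1, Aldh16a1 and Flt3l had log2 fold changes of -0.09, 0.01, 0.10 and -0.03 against DH-LMP2A, with edgeR adjusted p of at least 0.839. The remaining called genes in the window, named after their values were seen, were Ppfia3, Cpt1c, Zfp473, Shank1 and Clec11a, called against both genotypes, and Gm15545, called against WT. Ppfia3, on the higher-coordinate side, and Cpt1c, on the lower, rose by 1.82 ± 0.37 and 1.09 ± 0.22 (SE) on the log2 scale against DH-LMP2A (edgeR adjusted p = 0.0246 and 0.0245). Zfp473, on the lower-coordinate side, rose by 2.38 ± 0.28 (SE), from 0.865 to 4.52 CPM on average (edgeR adjusted p = 0.000853). Leaving out 1 library moved the count of called genes between 3 and 7 in LCDD against DH-LMP2A and between 6 and 9 against WT. Against WT, 1 was called without the 3 single-mouse WT libraries and 0 with the Ddx3y covariate. In the comparison with DH-LMP2A, without its replicate 2 for example, Shank1, Cpt1c and Ppfia3 were not called (edgeR adjusted p = 0.127, 0.0869 and 0.106).

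**Figure D5:**
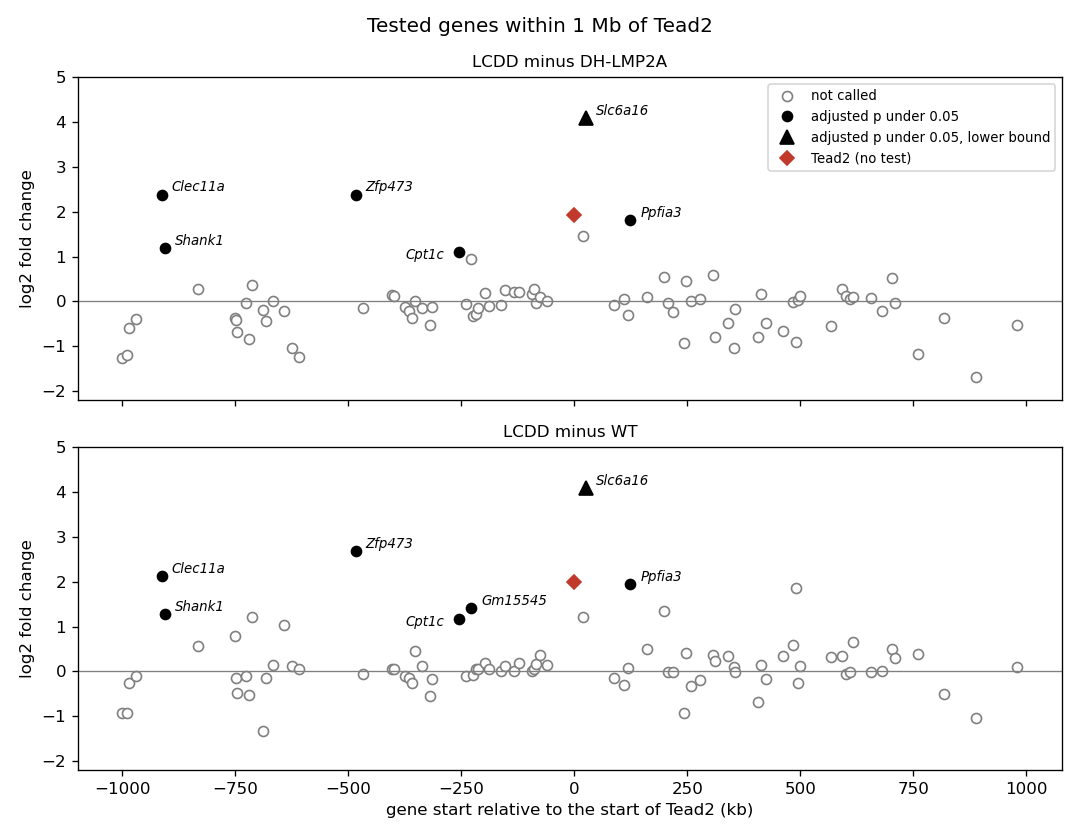
Each point is a tested gene within 1 Mb of Tead2, placed by the distance of its start from that of Tead2 in kb, with the log2 fold change in LCDD on the vertical axis. Filled symbols have an edgeR adjusted p under 0.05, the triangle for Slc6a16 is a lower bound of 4.08, and the called genes all lie above 0 among many uncalled genes near 0.

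Over all 13 libraries, the 5 genes whose log2 CPM was most like that of Tead2 among 13020 ranked genes were Ftl2-ps, BC018473, Mir692-2, Mir692-1 and Zfp473, with Pearson coefficients of 0.977, 0.975, 0.975, 0.973 and 0.949, given as a description. Ftl2-ps, BC018473 and Mir692-1 had at most 3 counts in any DH-LMP2A or WT library and at least 167 in each LCDD library. Mir692-2 lies over the end of Ftl2-ps on chromosome 4, and how reads shared between near-identical copies were counted is not given in the sources used here, so these values are uncertain. Of the 5, Zfp473 is the one on chromosome 7. In the same ranking Ankrd1 was at place 162, Ctgf at 167, Tead3 at 604 and Cyr61 at 658. Tead4 followed with a coefficient of 0.548, and the other 4 members were at place 5399 or beyond. The points share libraries and fall into the 3 genotypes, so these coefficients largely measure the LCDD difference that chose Tead2.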

How the data were processed

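The values are raw read counts per gene in 13 libraries, deposited by the authors in the column layout of featureCounts, per the file headers. Per the submitters' processing notes, STAR 2.4.0a, Subread 1.5.0-p3, featureCounts, DESeq2 and the builds mm10 and GRCm38 were used. The kit was stranded, per the labels' protocols; the strand setting of the counting, the handling of shared reads and the annotation are not given in the sources used here. Exon lengths are as deposited, and 0 further sample columns were left over.

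Counts were fitted in edgeR 4.0.16 (R 4.3.3) with TMM factors, filterByExpr at a minimum count of 10, 1 coefficient per genotype over all libraries, and the quasi-likelihood test with Benjamini-Hochberg adjustment over 16738 genes. A gene is called at an adjusted p under 0.05. SE was taken as |log2 fold change| / √F. A prior count of 2 was added for log2 CPM. A floor of 3 counts covers counting error only.

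Same-code libraries deviated together in every pair (correlation across genes of at least 0.153, 0.127 and 0.16 in the 3 comparisons), so the code pairs them, and blocked values are given where they change a call. On data simulated for LCDD against DH-LMP2A over 16738 genes, 75% of 200 genes changed 2 log2 units were called, with 10 false calls. Smaller changes were not simulated, so this gives no rate for them, and the simulated libraries held no code effect.

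Alternatives were DESeq2 1.42.0, RLE factors, other filters, fewer libraries, the block and 3 covariates, of which Ddx3y was added after the data had been seen. Members and lists were chosen with earlier results of these data known. Named are the members, the 3 list genes with the smallest p in each LCDD comparison, the 5 genes most like Tead2, the 3 nearest tested genes on each side and the 2 highest genes of each marker list; 2 genes that these rules pick are not reported here.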

Additional observations from a re-analysis of the deposited data

Results flagged for a closer look

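Each member was checked within each genotype for a library far from the others, 30 groups in all, where chance gives about 1.5. In 3 a library stood apart by Dixon's criterion. Yap1 in WT replicate 1 had a log2 CPM of 7.63 (199 CPM), with the rest of WT at 7.91 to 7.93. Wwtr1 in WT replicate 2 had 6.99 (127 CPM) against 7.45 to 7.57. Cyr61 in LCDD replicate 1 had 7.59 (192 CPM) against 6.43 to 6.52, the library with the highest mesangial and lowest podocyte sum.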

How the results depend on the processing

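The number of members called was 1 of 9 in LCDD against DH-LMP2A, 1 of 9 in LCDD against WT and 0 of 10 in DH-LMP2A against WT. With the title code as a replicate block the last became 1, and the block changed no other member's call. DESeq2 called 3, 3 and 1. Fitting only the 2 genotypes compared gave 0 against DH-LMP2A, and dropping the 3 WT libraries from single mice gave 0 and 0 for the LCDD comparisons. The proximal tubule covariate gave 2 in LCDD against DH-LMP2A, the podocyte covariate gave 1 in DH-LMP2A against WT, and the Ddx3y covariate gave 2 and 0 for the LCDD comparisons. Leaving out 1 library gave 0 to 1, 1 to 3 and 0 to 0. The cause of these changes was not tested, and no called member changed direction under any alternative. The Tead2 log2 fold change in LCDD stayed between 1.87 and 2.11 in all of them. Counts of all genes called moved more. From 334 in LCDD against DH-LMP2A they went to 1021 with the block, 823 with DESeq2, 853 with the tubule covariate, 153 at a mean of at least 5 CPM and 213 with only the genotypes compared. From 308 in LCDD against WT they went to 536, 742, 233, 116 and 185 under the same alternatives, to 54 without the single-mouse libraries and to 22 with the Ddx3y covariate. From 105 in DH-LMP2A against WT they went to 562, 474, 404 and 54 under the first 4, to 69 without the single-mouse libraries, to 896 with the podocyte covariate and to 53 with Ddx3y. Leaving out 1 library gave 113 to 484, 159 to 441 and 29 to 407. Depth limits the precision of Slc6a16, Fjx1, Ppfia3 and Zfp473, each at under 5 CPM on average in every genotype.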
